A study of Homo sapiens with 4 samples.

Results

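The genes described here are 10 regulators and markers of pluripotency, namely POU5F1, SOX2, NANOG, UTF1, LIN28A, TDGF1, DPPA2, DPPA3, DPPA4 and DPPA5. They were taken by gene symbol from the annotation of the array, and all 10 had values, on 15 of the 31332 features with a single gene symbol and thus as 10 of the 18334 genes measured. TDGF1 stands in that annotation under its current symbol CRIPTO. LNCaP cells, an androgen-responsive human line grown from prostate cancer spread to a lymph node, went without serum for 24 h and then were kept for 24 h or 48 h with either 1 µM 5-azacytidine or the solvent DMSO (dimethyl sulphoxide) alone. Each of 4 two-colour Agilent arrays compared treated RNA in Cy5 with vehicle RNA of the same time in Cy3, with 2 arrays at each time and no dye swap. All cells were of this single line, and a ratio shows neither the level of a gene in either RNA nor, in a culture of many cells, whether more cells or more RNA per cell gave it.

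POU5F1 (OCT4), SOX2 and NANOG are the transcription factors that hold embryonic stem cells and the inner cell mass in an undifferentiated state, binding largely the same enhancers and promoting each other's genes. DPPA genes (developmental pluripotency associated) are expressed in early embryos, pluripotent cells and germ cells, and most adult tissues have the members silenced, several of them by promoter methylation. 5-azacytidine is built into nucleic acids of dividing cells, traps DNA methyltransferases and lowers DNA methylation, so the comparison asks how the RNA of such genes stood in treated against vehicle cells.

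The 250 bases before the annotated start of 4 genes are shown because DNA methylation sits on CpG, and these windows span few to many of them. Sequences are from RefSeq, build GRCh38.p14, 5′ to 3′ on the strand of the gene, with each CG in capitals. DPPA5 (chr6:73354277-73354526, minus strand) and SOX2 (chr3:181711675-181711924, plus strand) had higher ratios at both times on at least 1 feature, DPPA2 (chr3:109316518-109316767, minus strand) mainly at 48 h, and NANOG (chr12:7789152-7789401, plus strand) was lower at 24 h.
DPPA5: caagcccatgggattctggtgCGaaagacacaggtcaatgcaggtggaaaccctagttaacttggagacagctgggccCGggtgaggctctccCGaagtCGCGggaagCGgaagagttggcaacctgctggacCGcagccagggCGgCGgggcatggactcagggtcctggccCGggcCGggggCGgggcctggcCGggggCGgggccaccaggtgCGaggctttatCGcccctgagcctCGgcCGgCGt
SOX2: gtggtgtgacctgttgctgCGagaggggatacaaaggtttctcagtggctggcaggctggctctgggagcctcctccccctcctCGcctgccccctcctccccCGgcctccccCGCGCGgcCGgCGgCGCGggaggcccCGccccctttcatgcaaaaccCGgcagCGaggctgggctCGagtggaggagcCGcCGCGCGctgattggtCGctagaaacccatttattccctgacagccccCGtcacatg
DPPA2: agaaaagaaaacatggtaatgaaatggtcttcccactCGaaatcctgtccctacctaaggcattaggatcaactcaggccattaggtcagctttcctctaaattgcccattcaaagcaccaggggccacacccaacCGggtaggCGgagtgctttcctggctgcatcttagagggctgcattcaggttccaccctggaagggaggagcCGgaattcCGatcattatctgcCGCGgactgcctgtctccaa
NANOG: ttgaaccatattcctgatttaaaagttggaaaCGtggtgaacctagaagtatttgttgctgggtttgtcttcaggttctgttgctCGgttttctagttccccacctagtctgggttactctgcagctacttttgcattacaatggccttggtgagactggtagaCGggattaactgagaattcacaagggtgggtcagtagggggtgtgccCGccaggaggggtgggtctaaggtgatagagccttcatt

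The DPPA5 window held 19 CG and the SOX2 window 20, the DPPA2 window 7 and the NANOG window 4, against a median of 11 over 35116 windows of this length. UTF1 had the most with 32, a number that 8.15% of all windows exceeded. DPPA4 had 3, DPPA3 had 2, and the 2 starts of TDGF1 had 2 and 9. POU5F1 and LIN28A were not among the windows used. ATGCAAA, the first 7 letters of the octamer that POU factors bind, or its reverse TTTGCAT was found in the windows of NANOG, SOX2 and DPPA3 and in 3.94% of all windows. ACAATG, a core that SOX factors bind, or its reverse CATTGT was found in those of NANOG and of 1 TDGF1 start and in 9.29% of all windows. In NANOG the TTTGCAT began 120 bases and the ACAATG 112 bases before the start, without overlap. These matches describe letters in the windows only.

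**Figure D1:**
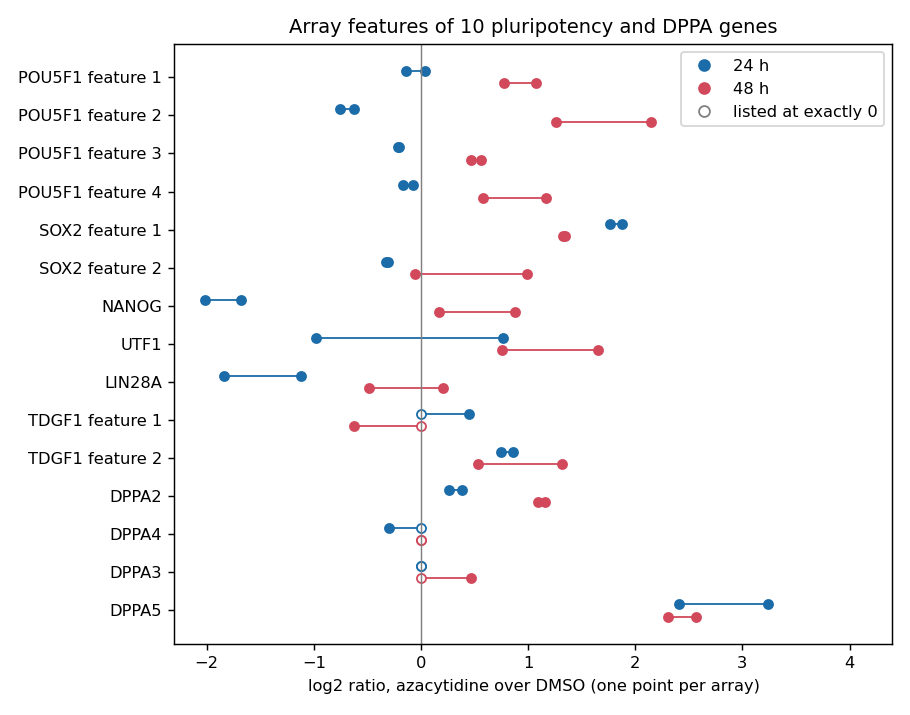
Log2 ratio of azacytidine over DMSO (horizontal axis) on each array for the 15 features of the 10 genes, with 1 point per array, a line joining the 2 arrays of a time, and open points where the value was listed at exactly 0. DPPA5 lies far to the right at both times, NANOG and LIN28A lie to the left at 24 h, all 4 POU5F1 features move to the right at 48 h, and the 2 SOX2 features lie apart at 24 h.

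All values are log2 ratios of treated over vehicle, read from deposited values whose base and direction follow the scanner software's convention and the dyes in the labels. A gene's value is the mean of its features, given per array as replicate 1 and replicate 2, then as mean ± SD of n = 2 arrays. Tests are limma tests fitted over all 18334 genes and both times, with p-values adjusted by the Benjamini-Hochberg method and a threshold of 0.05. Nothing in the labels says that replicates were separate cultures, so p-values cover only the spread between arrays, which may be technical. Replicate arrays lay closer at 24 h than at 48 h, with medians of 0.126 and 0.332 for the absolute difference over genes. With a term for the replicate number, or without either 24 h array, limma called 0 of all 18334 genes at any time, so every call of a gene below ends in these 3 settings. They are not named again at single genes, and single features were not tested in them. From the 48 h arrays alone limma also called 0% of all genes, so a 48 h call that ended there did so for every gene. At the feature level 16.5% of all features and 3 of the 15 features of these genes were listed at exactly 0 on at least 1 array. The scanner software writes 0 for several reasons, among them signal that did not stand above background. Of 9 listed luminal prostate markers 7 were measured, and none had a gene mean of 0 on every array. Of their 17 features 1 was at 0 on every array.

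At 24 h 3 of the 10 genes were higher (DPPA5, TDGF1 and DPPA2) and 1 was lower (NANOG), while 14.3% of all genes were higher and 9.97% lower. With the arrays scaled to one spread, 3 were higher and 3 lower at 24 h, where 41.0% of all genes were called. At 48 h 4 were higher (DPPA5, DPPA2, POU5F1 and SOX2) and 0 lower, with 18.2% of all genes higher and 20.7% lower. The share called in either direction was thus 4 of 10 at both times, against 24.3% and 38.8% of all genes, and at 48 h it was near the background. The median of the 10 genes was -0.05 at 24 h and 0.71 at 48 h, and that of all genes was 0 at both. The difference between times passed the test for DPPA2 and NANOG, both higher at 48 h, with 9.83% of all genes higher and 13.1% lower at 48 h than at 24 h.

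**Figure D2:**
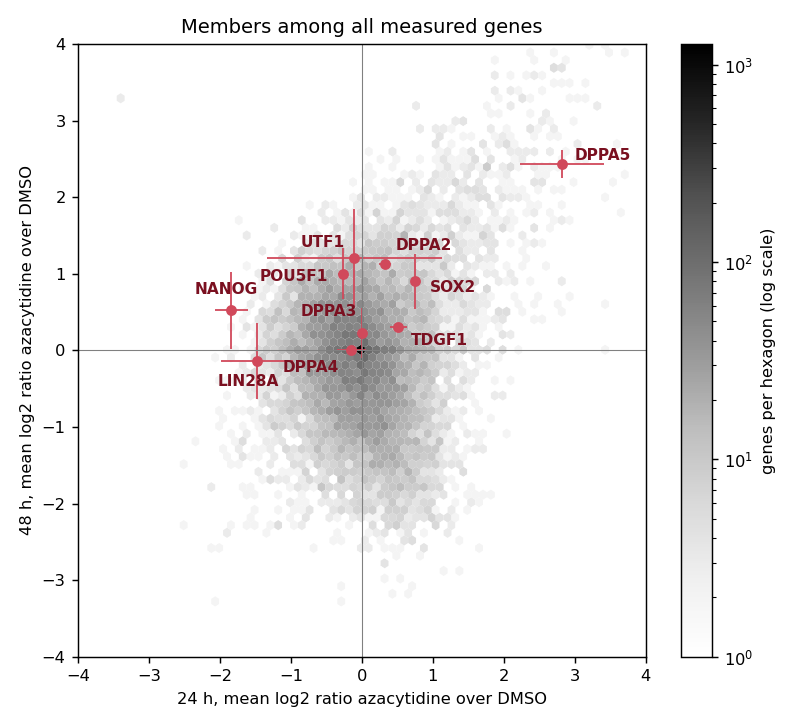
Mean log2 ratio at 24 h (horizontal) against 48 h (vertical) for the 10 genes, with bars of 1 SD over 2 arrays, on a density map of all genes in grey (logarithmic scale; 207 genes beyond 4 on either axis are not drawn). DPPA5 stands at the upper right with 2.82 and 2.44, NANOG at the left with -1.85 and 0.52, and most others lie above the horizontal line at 48 h.

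POU5F1, which encodes the POU-domain factor OCT4, lies in the major histocompatibility region at chr6:31164337-31170682 (GRCh38.p14) and had 4 features of one accession. At 24 h its values were -0.32 and -0.22, and at 48 h they were 0.77 and 1.24. Both 24 h arrays lay slightly below 0 and both 48 h arrays above it, without overlap. The 24 h mean of -0.27 ± 0.072 did not pass the test (adjusted p = 0.295, 95% interval -0.76 to 0.23), and the 48 h mean of 1.00 ± 0.33, or 2.00-fold, did (adjusted p = 0.0308). The difference of 1.27 between times narrowly missed the threshold (adjusted p = 0.0502, 95% interval 0.57 to 1.97). It passed with the arrays scaled (0.0152), with quantile normalization (0.0196) and without features at 0 (0.0178), though POU5F1 has no such feature. With feature medians (0.0587) and robust variance moderation (0.0642) it did not pass. Tested singly, features 1 and 3 passed in the difference (0.0489 and 0.0267), and features 2 and 4 did not (0.0501 and 0.0909). From the 48 h arrays alone, where 0% of all genes were called, POU5F1 was not called (adjusted p = 0.141).

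The 4 POU5F1 features moved the same way but not equally. Means at 48 h were 0.92 ± 0.21, 1.70 ± 0.63, 0.51 ± 0.065 and 0.87 ± 0.42 for features 1 to 4, and at 24 h they ran from -0.69 to -0.048. Features 1, 2 and 3 were called at 48 h when tested singly (adjusted p = 0.0247, 0.0385 and 0.0147), and feature 4 was not (adjusted p = 0.0589). Over all features 21.4% were called in either direction at 24 h, 36.6% at 48 h and 23.9% in the difference between times, and of the 15 features here 3, 6 and 5 were. Copies of POU5F1 elsewhere in the genome have near-identical sequence, and their features moved alike. POU5F1P4 was at -0.026 and -0.0033 at 24 h and 0.78 and 0.87 at 48 h (adjusted p = 0.00955 at 48 h), and POU5F1P3 at -0.14 and -0.042, then 0.39 and 0.61 (adjusted p = 0.0338). Whether these features read POU5F1 or its copies was not tested.

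SOX2, which encodes the HMG-box partner of OCT4, is a single-exon gene at chr3:181711925-181714436 inside the longer non-coding gene SOX2-OT. Its gene values were 0.73 and 0.77 at 24 h and 0.65 and 1.16 at 48 h. All 4 lay above 0 and the times overlapped. At 24 h the mean of 0.75 ± 0.032 missed the threshold (adjusted p = 0.0682), and at 48 h the mean of 0.90 ± 0.36, or 1.87-fold, passed it (adjusted p = 0.0401). Scaling of the arrays (adjusted p = 0.0169) and quantile normalization (0.0183) brought the 24 h value past the threshold. So did removal of features at 0 (0.0297) and the 24 h arrays alone (0.0284). In these settings 36.3% to 41.0% of all genes were called. SOX2 has no feature at 0, so that removal changed only the other genes in the fit. With feature medians and robust variance moderation the 24 h value did not pass (0.0716 and 0.0847). Robust variance moderation ended the 48 h call (adjusted p = 0.0518). So did the 48 h arrays alone (adjusted p = 0.161), where 0% of all genes were called.

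That gene mean joined 2 SOX2 features of one accession that did not move together. Feature 1 was at 1.76 and 1.87 at 24 h and at 1.35 and 1.33 at 48 h, and tested singly it was called at both times (adjusted p = 0.0145 and 0.00802). Feature 2 was at -0.31 and -0.33 at 24 h and at -0.051 and 0.99 at 48 h, and was called at neither (adjusted p = 0.546 and 0.342). At 24 h the features stood 2.13 apart, with both arrays of one above 0 and both of the other below it. Feature 1 fell by 0.48 from 24 h to 48 h (adjusted p = 0.0407), whereas feature 2 differed by 0.78 (adjusted p = 0.287). The SOX2-OT feature was at -0.46 and 0 at 24 h and at -0.99 and 0 at 48 h. It was not called (adjusted p = 0.678 and 0.329), and no rise like that of SOX2 feature 1 was recorded. Replicate 2 was listed at 0 at both times, which is no measurement of an unchanged level.

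NANOG encodes the homeodomain factor of the same network and lies at chr12:7789402-7799146, in a cluster with DPPA3 and GDF3. Its single feature was at -2.01 and -1.68 at 24 h and at 0.17 and 0.88 at 48 h. The 24 h arrays were far below 0, with only 0.949% of all genes lower, and the 48 h arrays were above it, without overlap. NANOG was lower at 24 h by -1.85 ± 0.23 (adjusted p = 0.0361), or 3.60-fold, and at 48 h its mean of 0.52 ± 0.50 did not pass (adjusted p = 0.197, 95% interval -0.28 to 1.33). The difference of 2.37 between times passed the test (adjusted p = 0.0444), but not with robust variance moderation (0.0574) nor without 48 h replicate 2 (0.0653). NANOG has processed copies in the genome that were not analysed here, so a copy's RNA on this feature cannot be told apart.

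UTF1, which encodes a chromatin-bound factor of undifferentiated embryonic cells and is a target of OCT4 and SOX2, lies at chr10:133230217-133231558. Its feature was at 0.76 and -0.98 at 24 h and at 0.75 and 1.66 at 48 h. The 24 h arrays disagreed in sign, and the 48 h arrays were both above 0. With means of -0.11 ± 1.23 and 1.21 ± 0.64 it passed at neither time (adjusted p = 0.977 and 0.22). The 48 h interval, from -0.79 to 3.20, holds both no change and a rise larger than that of DPPA5.

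LIN28A encodes an RNA-binding protein that blocks maturation of let-7 microRNAs, and lies at chr1:26410817-26429728. Its feature was at -1.12 and -1.84 at 24 h and at -0.49 and 0.21 at 48 h. Both 24 h arrays were below both 48 h arrays. The 24 h mean of -1.48 ± 0.51, or 2.79-fold lower, missed the threshold (adjusted p = 0.0662, 95% interval -2.50 to -0.46), although 98.1% of all genes had higher values. It passed with the arrays scaled (0.0387), with quantile normalization (0.0368) and without features at 0 (0.0161). In these settings 38.2% to 41.0% of all genes were called. The LIN28A feature was never at 0, so removal of features at 0 changed only the other genes in the fit. At 48 h the mean was -0.14 ± 0.49 (adjusted p = 0.788), and the difference of 1.34 between times did not pass (adjusted p = 0.118).

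TDGF1 (CRIPTO), a membrane-anchored coreceptor for the ligand Nodal, lies at chr3:46574535-46582457. Its gene values were 0.43 and 0.60 at 24 h and 0.35 and 0.26 at 48 h. The mean at 24 h, 0.51 ± 0.12, passed the test (adjusted p = 0.0344), and the mean at 48 h, 0.31 ± 0.058, missed it (adjusted p = 0.0537). Neither feature was called when all features were tested singly. Feature 2 was at 0.86 and 0.75 at 24 h and 1.32 and 0.53 at 48 h (adjusted p = 0.131 and 0.0832), while feature 1 was at 0 and 0.45, then -0.62 and 0 (adjusted p = 0.567 and 0.385). The 24 h call also ended with the 24 h arrays alone (adjusted p = 0.0654), and in the fit without features at 0, which leaves feature 2 alone, the values of 0.80 at 24 h and 0.92 at 48 h both passed (adjusted p = 0.0476 and 0.0233). The feature of its processed copy CRIPTO3 was listed at 0 on all 4 arrays.

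DPPA2 and DPPA4 encode SAP-domain proteins that bind DNA together in pluripotent cells, and their genes lie side by side on chromosome 3, 9627 bases apart. DPPA2 (chr3:109293788-109316517) was at 0.38 and 0.26 at 24 h and at 1.09 and 1.16 at 48 h. All 4 arrays were above 0, and those of 48 h were well above those of 24 h. It was higher at 48 h by 1.12 ± 0.049, or 2.18-fold (adjusted p = 0.00888). From the 48 h arrays alone, where 0% of all genes were called, it was not called (adjusted p = 0.0929). The small value at 24 h, 0.32 ± 0.086 or 1.25-fold, just passed (adjusted p = 0.0471). Among the alternatives it passed only with feature medians (0.0481) and with the values read as log2 (0.0471). Neither puts the DPPA2 value to a test, since the gene has 1 feature and reading as log2 rescales all values alike. In the other alternatives it did not pass. DPPA2 rose by 0.80 from 24 h to 48 h (adjusted p = 0.0309), a difference that was not called with the arrays scaled (0.0727) or without 48 h replicate 2 (0.0663).

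DPPA4 (chr3:109326144-109339636) was listed at 0 on 3 arrays and stood at -0.30 on 24 h replicate 2. Means of -0.15 ± 0.21 at 24 h and 0 at 48 h gave no call (adjusted p = 0.344 and 1). The neighbours were thus recorded differently, DPPA2 with a nonzero value on every array and DPPA4 on 1 array. The same holds for DPPA3 (chr12:7711433-7717559), which encodes a maternal factor that protects the early embryo's DNA methylation in mice. DPPA3 was listed at 0 on 3 arrays and stood at 0.46 on 48 h replicate 2, with a 48 h mean of 0.23 ± 0.33 (adjusted p = 0.301). For both genes a value of 0 is no measurement of an unchanged level. Without 48 h replicate 1 the DPPA3 value at 48 h rested on the lone other array and passed (adjusted p = 0.025).

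DPPA5 had the highest ratio of the 10 genes at both times. It encodes a small KH-domain protein of pluripotent and germ cells and lies at chr6:73353063-73354276. Its feature was at 3.23 and 2.40 at 24 h and at 2.57 and 2.30 at 48 h. All 4 arrays were far above 0, and the times overlapped. DPPA5 was higher by 2.82 ± 0.59 at 24 h, or 7.06-fold (adjusted p = 0.0244), and by 2.44 ± 0.19 at 48 h, or 5.41-fold (adjusted p = 0.0205). Only 1.85% of all genes had a higher value at 24 h and 3.39% at 48 h. The difference of -0.38 between times did not pass (adjusted p = 0.491, 95% interval -1.64 to 0.88). Its call ended with the 24 h arrays alone (adjusted p = 0.0569) and with the 48 h arrays alone (0.0929), and without 1 of the 48 h arrays the 48 h adjusted p was 0.0939 or 0.096. With the arrays scaled it was 0.054.

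KHDC1, of the same KH-domain family and 42685 bases from DPPA5, was also high. It stood at 3.14 and 3.56 at 24 h and at 3.26 and 3.20 at 48 h (adjusted p = 0.0135 and 0.00813), on 2 features between 2.77 and 3.71. On the other side of DPPA5, OOEP, a family member needed in the oocyte, stood at 0.26 and 0.018 at 24 h and 0.58 and 0.046 at 48 h and was not called (adjusted p = 0.631 and 0.276). The helicase gene DDX43 next to it was lower at 24 h (-0.87 and -0.86, adjusted p = 0.0379) and higher at 48 h (0.53 and 0.90, adjusted p = 0.0366). High ratios at this locus were thus found for 2 of the genes with a value. OOEP, the nearest of these on the other side, stayed below DPPA5 and KHDC1 on every array. Of 4 listed family genes 2 were measured. KHDC1L and KHDC3L had no value, so how far high ratios extend here cannot be read.

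**Figure D3:**
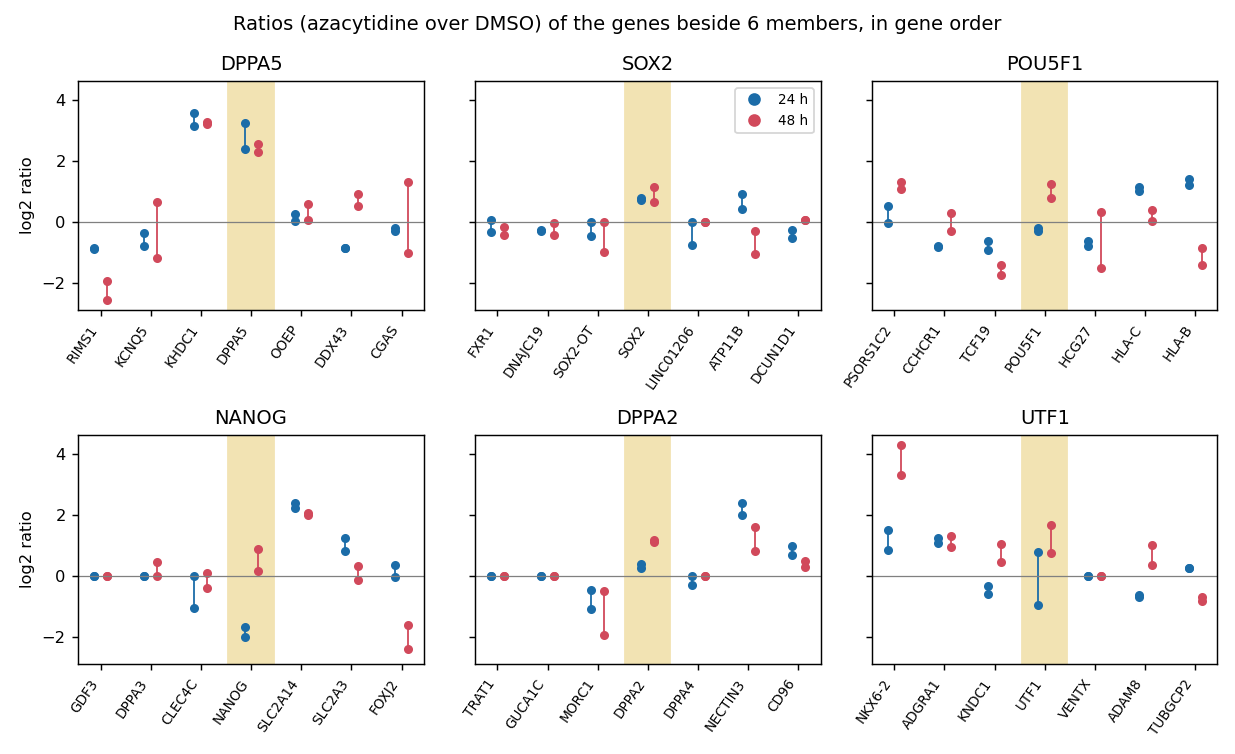
Log2 ratios on each array (vertical axis) of the genes beside 6 of the 10 genes in chromosomal order, up to 3 on each side, with the member shaded, 24 h in blue, 48 h in red, and a line joining the 2 arrays of a time. KHDC1 beside DPPA5 and SLC2A14 beside NANOG lie well above 0 on every array, and SOX2-OT lies at or below 0.

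Other neighbours were taken by position alone among genes with a value, and lay up to 2250 kb from the member. Of 49 genes beside the 10 loci, 8 were higher and 1 lower at 24 h, and 9 were higher and 6 lower at 48 h. Over all genes 14.3% were higher and 9.97% lower at 24 h, and 18.2% and 20.7% at 48 h, so the shares of higher neighbours were near the background. The neighbours described next were picked after their values were seen. In the NANOG and DPPA3 cluster, GDF3, a ligand of the Nodal group, was listed at 0 on every array, and the glucose transporter gene SLC2A14 was at 2.38 and 2.21 at 24 h and at 1.99 and 2.07 at 48 h (adjusted p = 0.0127 and 0.00733). TCF19, which lies 122 bases from POU5F1, was at -0.62 and -0.93 at 24 h (adjusted p = 0.0565). At 48 h it was lower with -1.76 and -1.41 (adjusted p = 0.016), opposite in sign to POU5F1. At 24 h both genes lay below 0 on both arrays. The homeobox gene NKX6-2, 444 kb from UTF1, reached 3.31 and 4.28 at 48 h (adjusted p = 0.0168). KNDC1, which is nearer on that side at 3.81 kb, was not called at 48 h (adjusted p = 0.0808). ADGRA1, between these at 98.5 kb, was higher at 24 h (1.08 and 1.25, adjusted p = 0.0281). At 48 h it was also higher (1.31 and 0.95, adjusted p = 0.0205), and it had a feature listed at 0. On the other side of UTF1, VENTX was listed at 0 on every array. PRSS50, a testis protease gene near TDGF1, was at 1.96 and 2.20 at 24 h and at 2.51 and 2.74 at 48 h (adjusted p = 0.0155 and 0.00813).

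Genes related to these 10 by pathway or family were described from 10 lists with 177 measured genes. Of these, 42 were higher and 16 lower at 24 h, and 47 were higher and 20 lower at 48 h, or 23.7% and 9.04%, then 26.6% and 11.3%. The shares over all genes, against which each list below is also to be read, were 14.3% and 9.97%, then 18.2% and 20.7%. The median of the 177 genes was 0 at 24 h and 0.16 at 48 h. With the arrays scaled, 49 were higher and 32 lower at 24 h, where 41.0% of all genes were called. Features of ALPG, CCND1, ID1, KLF4, SOX21 and SOX4, named below, stood more than 1 apart at a time. The difference between times was called for 28, of which 16 were higher at 48 h and 12 lower. These were 9.04% and 6.78% of the 177, against 9.83% and 13.1% of all genes.

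Markers of naive human pluripotent cells, the state nearest the inner cell mass, had the highest median of the lists with more than 2 genes. The lists were chosen with earlier results of these data known, and KLF17 and TFCP2L1 were named after their values were seen. Of 16 measured, 10 were higher and 0 lower at each time, with medians of 1.62 and 1.95. KLF17, a zinc-finger factor of human naive cells, was at 2.12 and 2.91 at 24 h and at 3.18 and 2.70 at 48 h (adjusted p = 0.0297 and 0.0173). TFCP2L1, a naive-state transcription factor, was at 1.26 and 2.02, then 2.02 and 2.13 (adjusted p = 0.0403 and 0.0214). FAM151A was at 3.38 and 3.36, then 4.47 and 5.40 (adjusted p = 0.022 and 0.0102), and CD70, which encodes a ligand of the tumour necrosis factor family, at 2.42 and 2.69, then 3.84 and 4.91 (adjusted p = 0.0363 and 0.0134). ALPG, an alkaline phosphatase gene, was at 3.40 and 3.51, then 3.70 and 3.46 (adjusted p = 0.0126 and 0.00714), with its 2 features at 2.01 and 5.14 at 48 h. FGF4, GDF3, NODAL and TRIM60 had features listed at 0 and were not called. Several genes of this list are also expressed in testis, placenta or lymphocytes.

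Markers of the later, primed state had medians below 0 at both times, and the difference between both lists was not tested. Of 19 measured, 1 was higher and 2 lower at 24 h, and 2 were higher and 2 lower at 48 h, with medians of -0.30 and -0.044. ZIC2, a primed-state zinc-finger gene, was lower at 24 h (-1.06 and -1.60, adjusted p = 0.0435) and at -0.23 and 0.15 at 48 h (adjusted p = 0.949). THY1, a surface antigen gene, was at -0.28 and -0.26 at 24 h and higher at 48 h (0.94 and 1.82, adjusted p = 0.0478). The phosphatase gene DUSP5 was higher at 24 h (2.23 and 1.87, adjusted p = 0.0497).

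Among regulators of the pluripotency network outside the 10 genes, 7 of 29 were higher and 4 lower at 24 h, and 3 were higher and 5 lower at 48 h. KLF4, one of the factors used with OCT4 and SOX2 to reprogram cells, was higher at both times and less so at 48 h (2.88 and 2.81, then 1.84 and 1.53, with a difference of -1.16 and adjusted p = 0.0391). SALL4, a zinc-finger partner of OCT4, was at 0.48 and 0.67 at 24 h and higher at 48 h (1.75 and 2.64, adjusted p = 0.0248). KLF5 was at 2.45 and 2.46 at 24 h (adjusted p = 0.0291) and 1.67 and 0.79 at 48 h (adjusted p = 0.0564).

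In the Nodal pathway, in which TDGF1 acts, 7 of 22 genes were higher and 1 lower at 24 h, and 6 were higher and 5 lower at 48 h. LEFTY1, an extracellular Nodal antagonist, was at 3.19 and 3.64, then 2.78 and 2.26 (adjusted p = 0.0168 and 0.0147). FST, which encodes the activin antagonist follistatin, was at 3.02 and 2.13, then 2.60 and 2.40 (adjusted p = 0.0287 and 0.0208). SMAD4, the shared signal transducer, was at 0.69 and 0.88 at 24 h and at -1.76 and -1.86 at 48 h, and its 10 features agreed in sign at each time (adjusted p = 0.0241 and 0.00798). NODAL itself was at 0 on both 24 h arrays and at 0.13 and 0 at 48 h.

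For LIN28 and the let-7 axis, 1 of 24 genes was higher and 5 lower at 24 h, and 4 were higher and 3 lower at 48 h, with medians of -0.36 and 0.37. TRIM71, a let-7 target and stem cell ubiquitin ligase gene, was lower at 24 h (-1.73 and -2.07, adjusted p = 0.0275) and not called at 48 h (0.48 and 1.02, adjusted p = 0.0775). Its difference of 2.65 between times passed the test (adjusted p = 0.0352). LIN28B, the paralogue of LIN28A, was at 0.65 and 0.030, then 0.17 and 0.035 (adjusted p = 0.306 and 0.751). The let-7 target genes ARID3A and CCND1 moved in opposite ways between times, ARID3A by 1.82 (adjusted p = 0.0451) and the cyclin gene CCND1 by -2.17 (adjusted p = 0.0343).

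Of other SOX genes 2 of 19 were higher and 2 lower at 24 h, and 5 were higher and 3 lower at 48 h. SOX9, a regulator of ducts and cartilage, was higher at both (2.10 and 2.04, then 2.80 and 2.68, adjusted p = 0.0126 and 0.00714), and SOX4 was lower (-0.83 and -1.07, then -1.41 and -1.60, adjusted p = 0.0272 and 0.0114). SOX21 was at 0.85 and 0.77, then higher at 1.27 and 1.82 (adjusted p = 0.0696 and 0.021), with features at -0.42 and 2.04 at 24 h. Of other POU genes 1 of 12 was higher at 24 h and 3 at 48 h, with 0 lower at either. They were POU2F3, a factor of tuft cells, at 1.31 and 1.32, then 0.26 and 0.20 (adjusted p = 0.0127 and 0.0338), and at 48 h also POU5F2 (1.84 and 2.95, adjusted p = 0.047) and POU4F1 (0.63 and 0.98, adjusted p = 0.0283).

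**Figure D4:**
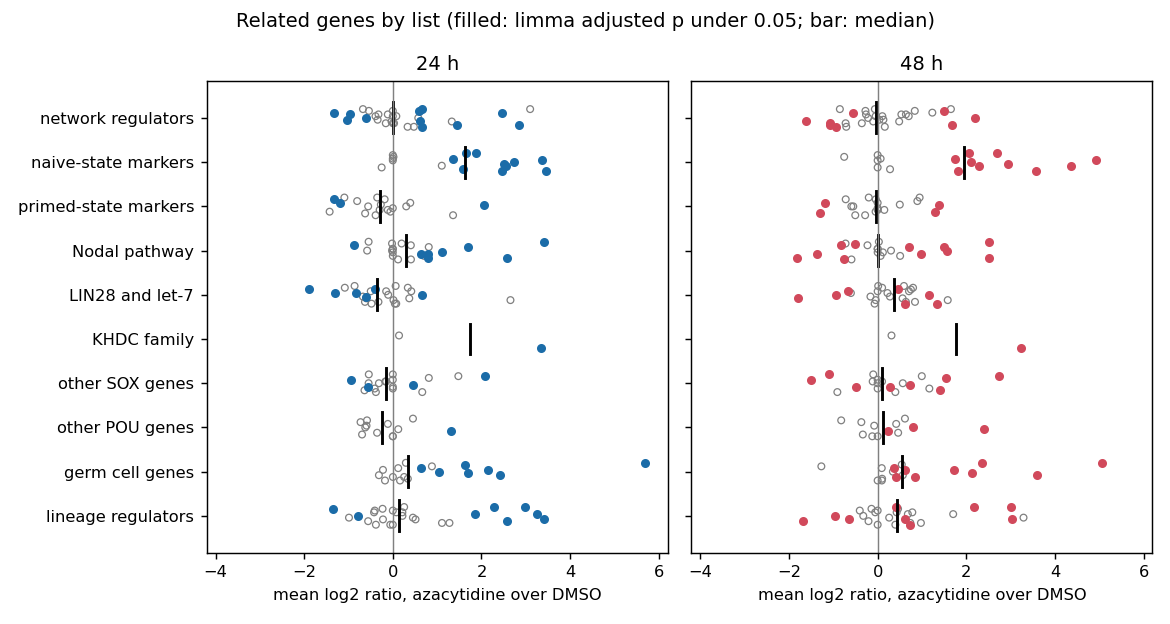
Mean log2 ratio of azacytidine over DMSO (horizontal axis) at 24 h and 48 h for the measured genes of 10 lists, with filled points for genes past the limma threshold, open points for others and black bars for medians. The naive-state markers have medians of 1.62 and 1.95, and the primed-state markers -0.30 and -0.044.

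Genes of primordial germ cells, which also express several of the 10, were higher in 7 of 17 and lower in 0 at 24 h, and higher in 9 and lower in 0 at 48 h. DAZL, an RNA-binding factor of germ cells, had the highest value, at 5.19 and 6.18, then 6.37 and 3.75 (adjusted p = 0.0429 and 0.0378). The chemokine receptor gene CXCR4 was at 2.34 and 2.49, then 3.76 and 3.42 (adjusted p = 0.0151 and 0.00733). TCL1A, a lymphoid and germ-cell gene, was at -0.39 and 0.98, then 2.41 and 2.30 (adjusted p = 0.667 and 0.0405). Of regulators of the first embryonic lineages 6 of 26 were higher and 2 lower at 24 h, and 6 were higher and 3 lower at 48 h. They included ID1 (3.67 and 3.17, then 3.35 and 2.72, adjusted p = 0.0193 and 0.0143) and ID2 (2.34 and 2.25, then 3.09 and 2.91, adjusted p = 0.0133 and 0.00714), inhibitors of helix-loop-helix factors, and the T-box gene EOMES at 24 h (2.47 and 4.03, adjusted p = 0.0478).

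Genes most like each called member were taken by the Euclidean distance of the 4 log2 ratios, among 14324 genes with no feature at 0. This is a description over 4 arrays. For DPPA5 they were FST at a distance of 0.36, SOST at 0.43 and PRTFDC1 at 0.60. For NANOG they were ANKRD36B at 0.33, ANKRD36BP2 at 0.37 and MUSTN1 at 0.39, all between -1.79 and -1.60 on the 24 h arrays. POU5F1 was followed most closely by USP43 at 0.071, MCTP2 at 0.081 and SHD at 0.093, and DPPA2 by RAD54B at 0.096, CFAP184 at 0.12 and DUSP26 at 0.14. SOX2 had ALCAM at 0.13, AATBC at 0.20 and CDH22 at 0.24, and TDGF1 had DDB1 at 0.11, ALAD at 0.13 and MRPL49 at 0.14. For SOX2 and TDGF1 the distances were taken from means of features that stood apart. TDGF1 itself had a feature at 0 on 2 arrays.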

How the data were processed

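Log10 ratios of all arrays were deposited by the authors in a single table, made with Agilent Feature Extraction 8.5.1.1, per the submitters' processing notes, with settings not given in the sources used here. Its log10 base and its direction, Cy5 over Cy3, were read from the software's convention and the dyes in the labels, and values were multiplied by log2 of 10. Column medians were 0, which the many values at exactly 0 can give by themselves, and whether the authors centred the arrays is not given in the sources used here. Intensities were not analysed here, so depth or signal could not be weighed, and the number of arrays limits precision.

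Features with 1 platform symbol on the array were averaged per gene (18334 genes) and fitted by limma 3.58.1 (R 4.3.3), with a mean for each time, moderated variances (2 residual and 0.735 prior degrees of freedom) and Benjamini-Hochberg adjustment over all genes. The fit was tested on simulated data. Related genes are named where they had the 3 largest ratios of a list among called genes with arrays of one sign, and TFCP2L1, KLF17, LIN28B, NODAL and the genes at 0 were named after their values were seen. Neighbours (up to 3 a side) and similar genes followed position and distance; of the neighbours, those described were picked after their values were seen. The copies of POU5F1 and TDGF1 were also chosen later. A list of NANOG copies had 0 measured members. The genes and lists were chosen with earlier results of these data known. Same-numbered arrays deviated with r = -0.0347 across genes, and nothing in the labels pairs them. Alternatives were a replicate block, array scaling, quantile normalization, feature medians, no features at 0 and robust moderation. Others were log2 in place of log10, each time alone, each array left out and single features. With single features a gene was represented by its feature of lowest p. Promoter sequences came from RefSeq. Figures used matplotlib 3.10.9.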

Additional observations from a re-analysis of the deposited data

Results flagged for a closer look

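Some results differed between 24 h and 48 h by the limma test of the difference itself, with all values as log2 ratios at 48 h minus 24 h. Among the 10 genes these were DPPA2 at 0.80 and NANOG at 2.37, and among single features POU5F1 feature 1 at 0.97, POU5F1 feature 3 at 0.72 and SOX2 feature 1 at -0.48. The related genes TRIM71 at 2.65, ARID3A at 1.82, POU4F1 at 1.43, CXCR4 at 1.17, ID2 at 0.71 and SOX9 at 0.67 were higher at 48 h. Lower at 48 h were SMAD4 at -2.60, CCND1 at -2.17, KLF4 at -1.16 and POU2F3 at -1.09. Between times 23% of all genes were called, and the 48 h arrays had the wider spread. The part of that spread in these differences was not tested.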

How the results depend on the processing

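The number of the 10 genes called was 4 at 24 h, 4 at 48 h and 2 in the difference. With the replicate block it was 0 in each (4, 4 and 3 at an unadjusted limma p under 0.05), and for related genes 0 in place of 58, 67 and 28 (70, 78 and 57). From the arrays of one time alone it was 2 at 24 h, where 36.3% of all genes were called. At 48 h it was 0 (4 at an unadjusted p), with 0 related genes (60) and 0% of all genes. Leaving out 1 array gave 0 to 2 at 24 h, 0 to 4 at 48 h and 0 to 5 in the difference, and 0 to 62, 0 to 68 and 0 to 59 related genes. The highest of these leave-out counts came from fits in which a larger share of all genes was called than in the main fit. They are to be read against that larger share, and each such fit leaves 1 array at a time point. In the difference, 4 of 8 were called without features at 0 (47.3% of all genes) and 4 of the 10 by features (23.9% of all features). With robust moderation it was 1 (14.2%), against 23.0% of all genes in the main fit. Of related genes, 51 were called with arrays scaled (36.1% of all genes) and 51 with quantile normalization (37.5%). Their number was 63 without features at 0, 50 by features and 15 with robust moderation. Signs turned for values that had not passed. These were DPPA5 in the difference (0.032 without 24 h replicate 1), SOX2 in the difference (-0.12 with arrays scaled, -0.10 without 48 h replicate 2, -0.48 on feature 1), LIN28A at 48 h (0.21 without 48 h replicate 1), UTF1 at 24 h (0.76 without 24 h replicate 2) and TDGF1 in the difference (0.12 without features at 0). For ranges, SOX2 in the difference ran up to 0.40 without 48 h replicate 1 (adjusted p = 0.0469), DPPA5 down to -0.80 without an array and -1.14 with arrays scaled, LIN28A at 48 h down to -0.49 and UTF1 at 24 h down to -0.98. Reading the values as log2 kept the counts and shrank each ratio. Causes were not tested.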
